A study of Mus musculus with 8 samples.

Results

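The genes described here are 50 genes of mitosis and chromosome segregation, chosen by name from a fixed list of G2/M, spindle, kinetochore, cytokinesis and condensin genes. The rule itself used no measured value, but earlier results of these data were known when the genes were chosen. All 50 were found by their Entrez gene IDs among the 24112 genes listed, and all 50 passed the filter on low values (at least 1 RPKM in at least 4 libraries) that left 11276 genes for testing. RPKM divide the reads of a gene by its length in kilobases and by the size of its library. The cells were LSK cells, the lineage-negative, Sca1+ and Kit+ fraction of bone marrow that holds blood stem cells and early multipotent progenitors. The 2 groups were KO, with cells from mice that had received Traf6-/-;Vav-Cre+ marrow (4 libraries), and WT, with cells from mice that had received Vav-Cre+ marrow (4 libraries). Both groups thus carried the Cre recombinase under the Vav promoter, which is active in blood cells, and both had gone through transplantation on a C57BL/6 background. TRAF6 is a ubiquitin ligase that relays the signals of Toll-like receptors and of the interleukin-1 receptor to NF-κB, and the study asked whether it maintains basal NF-κB activity in blood stem cells. The labels give neither the age of the mice, nor the number of mice behind a library, nor how many host cells remained in the sorted fraction. The p-values therefore rest on a spread between libraries that may be technical only.

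Entry into mitosis is driven by the kinase CDK1 bound to cyclins A and B. The aurora and polo kinases then build the spindle, kinetochores attach chromosomes to it, and the spindle checkpoint holds back the anaphase-promoting complex until every chromosome is attached. RNA of most of these genes accumulates in G2 and M under the control of FOXM1 and of the MuvB complex, and is low in resting cells. In bone marrow the long-term stem cells divide rarely and the multipotent progenitors of the LSK fraction divide often, so the level of these RNAs in bulk LSK cells reflects a mixture. Fewer dividing cells and less RNA per dividing cell cannot be told apart in such samples.

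Late cell cycle promoters are known for CCAAT boxes, which bind NF-Y, and for the cell cycle genes homology region, a short element with the letters TTTGAA or TTTAAA that recruits MuvB. Both were searched for on both strands in the RefSeq promoters of build GRCm38.p6, each running from 250 bases before to 50 bases after the start of a gene, with overlaps between motifs allowed. Of the 50 genes, 42 had a promoter entry. CCAAT was present in 33 of these 42 (78.6%), against 43.4% of the 8979 tested genes with an entry and 41.1% of all 27025 genes with an entry. TTTGAA was present in 31 of 42 (73.8%), against 14.6% of the tested genes and 20.2% of all genes with an entry. TTTAAA was present in 9 of 42 (21.4%), against 10.8% of the tested genes and 14.9% of all genes. CCAAT together with either of the other motifs was found in 30 of 42 (71.4%), against 9.57% of the tested genes and 12.2% of all genes. A gene counted once if any of its entries held the motif, and the mean number of entries per gene was 1.07 in the 42 and 1.26 in the tested genes. The median GC content was 59.6% in the 42 and 60.7% in the tested genes. These matches describe letters in a window and not occupied sites.

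The promoters of 5 genes on which the values below turn are shown for the 250 bases before the start, 5′ to 3′ on the strand of the gene, with matches to the 3 motifs on either strand in capitals. Cdk1 (chr10:69352913-69353162, minus strand) encodes the kinase itself, and its stretch holds TTTGAA 71 and 15 bases before the start. Mki67 (chr7:135716380-135716629, minus strand) encodes the proliferation antigen Ki-67. Smc2 (chr4:52438971-52439220, plus strand) encodes a condensin core subunit. Kif11 (chr19:37376132-37376381, plus strand) encodes the motor that pushes spindle poles apart. Bub1b (chr2:118597961-118598210, plus strand) encodes the checkpoint protein BUBR1, and CCAAT is the single motif of the 3 in its stretch. In the longer window searched above, which runs past the start, Bub1b also held TTTGAA and was counted as a gene with that motif.
Cdk1: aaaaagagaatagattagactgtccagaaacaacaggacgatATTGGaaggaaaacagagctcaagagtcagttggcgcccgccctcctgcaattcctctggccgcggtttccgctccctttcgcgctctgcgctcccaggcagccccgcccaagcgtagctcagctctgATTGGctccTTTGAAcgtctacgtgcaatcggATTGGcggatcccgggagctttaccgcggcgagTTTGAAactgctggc
Mki67: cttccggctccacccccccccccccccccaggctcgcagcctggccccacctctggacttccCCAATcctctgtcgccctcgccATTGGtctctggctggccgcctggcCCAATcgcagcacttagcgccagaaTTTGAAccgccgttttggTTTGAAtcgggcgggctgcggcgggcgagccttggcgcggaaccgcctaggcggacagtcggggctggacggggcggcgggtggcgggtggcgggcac
Smc2: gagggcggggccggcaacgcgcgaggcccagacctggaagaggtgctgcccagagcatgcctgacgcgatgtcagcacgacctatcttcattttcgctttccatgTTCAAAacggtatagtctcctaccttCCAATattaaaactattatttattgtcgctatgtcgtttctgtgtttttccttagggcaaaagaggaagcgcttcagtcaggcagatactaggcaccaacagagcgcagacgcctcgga
Kif11: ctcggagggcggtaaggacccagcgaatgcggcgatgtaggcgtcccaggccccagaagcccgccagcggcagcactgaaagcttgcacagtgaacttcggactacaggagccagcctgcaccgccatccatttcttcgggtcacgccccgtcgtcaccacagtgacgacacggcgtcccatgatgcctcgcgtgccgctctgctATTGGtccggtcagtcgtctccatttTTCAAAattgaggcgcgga
Bub1b: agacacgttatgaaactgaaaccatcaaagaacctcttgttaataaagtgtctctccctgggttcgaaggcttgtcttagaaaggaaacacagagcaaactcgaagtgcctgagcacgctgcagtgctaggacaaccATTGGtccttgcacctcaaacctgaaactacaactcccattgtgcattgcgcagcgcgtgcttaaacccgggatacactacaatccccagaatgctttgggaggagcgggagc

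The libraries differ in ways that touch the values. Depth, read from the steps between low values, was estimated at 22.5 to 30.6 M reads in KO and 19.3 to 24.8 M reads in WT (M for mega). Lane 5 of the flow cell held KO3 and KO4, and lane 4 held the remaining 6; KO3, KO4 and WT2 each stood apart on a principal component of their own. KO3 listed 2712 of the 11276 tested genes at 0 and KO4 listed 1278, against 30 in KO2 and 98 in WT4. Among the 50 genes, Foxm1, Aurka and Pttg1 were listed at 0 in KO3, and no other zero occurred. A listed 0 does not show that an RNA was absent, since genes well expressed elsewhere are also at 0 in KO3. Traf6 was at 0.613, 0.818, 0 and 0.00721 RPKM in KO1 to KO4, against 14.9, 3.52, 9.40 and 7.10 RPKM in WT1 to WT4. The gate genes Kit and Ly6a were at 50.6 to 113 and 6.53 to 10.9 RPKM in KO, and at 73.8 to 83.1 and 7.31 to 11.8 RPKM in WT. The B and T cell genes Cd79a, Ms4a1 and Cd3g were listed at 0 in all 8 libraries. They belong to a list of 13 markers of mature lineage cells, of which 3 others passed the filter, all higher by sign in KO.

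Mitosis RNAs were abundant in LSK cells of both genotypes. The median of the 50 genes, over their mean in 8 libraries, was 42.0 RPKM, against 12.5 RPKM for all genes tested. Hmgb2, a chromatin protein of dividing cells, led with a mean of 341 ± 101 RPKM in KO and 386 ± 38.1 RPKM in WT (SD, n = 4 each). Cks1b, a small subunit of the CDK complexes, followed at 256 ± 20.8 RPKM in KO and 287 ± 36.4 RPKM in WT. Top2a, the topoisomerase that untangles sister chromatids, came after it, and Smc4 and Ube2c came next, with means over the 8 libraries of 139 RPKM for Smc4 and 133 RPKM for Ube2c. At the other end stood Foxm1 at 8.41 RPKM and Pttg1, which encodes the anaphase inhibitor securin, at 7.53 RPKM on average over the 8 libraries. Cks1b has a near-identical retrogene copy, Cks1brt, which was listed at no more than 3.71 RPKM, and reads may have been split between them.

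No mitosis gene passed the test between KO and WT. With limma on log2(RPKM + 1), 0 of 50 passed a Benjamini-Hochberg adjusted p of 0.05, where 0.0% of all tested genes passed. The smallest adjusted p among the 50 in limma was 0.637. At an unadjusted p under 0.05, 1 gene was higher (Bub1b) and 2 were lower (Anln and Smc2) in KO, beside 2.77% and 4.74% of all tested genes (7.51% in either direction). The KO and WT values did not overlap in 1 gene that was higher in KO (Bub1b) and 3 that were lower (Anln, Smc2 and Mki67), beside 2.05% and 3.88% of all tested genes (5.92% in either direction). The median log2 difference, KO minus WT, of the 50 was -0.15, and that of all tested genes was -0.14. By sign alone 15 of 50 were higher and 35 lower in KO, where 61.0% of all tested genes were lower. The 95% interval of the difference, unadjusted, lay within 1 log2 unit of 0 on both sides for 37 of 50 genes, and for 30.0% of all tested genes, whose median level was lower. For these 37 genes a doubling or a halving on the log2(RPKM + 1) scale lay outside the interval.

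**Figure D1:**
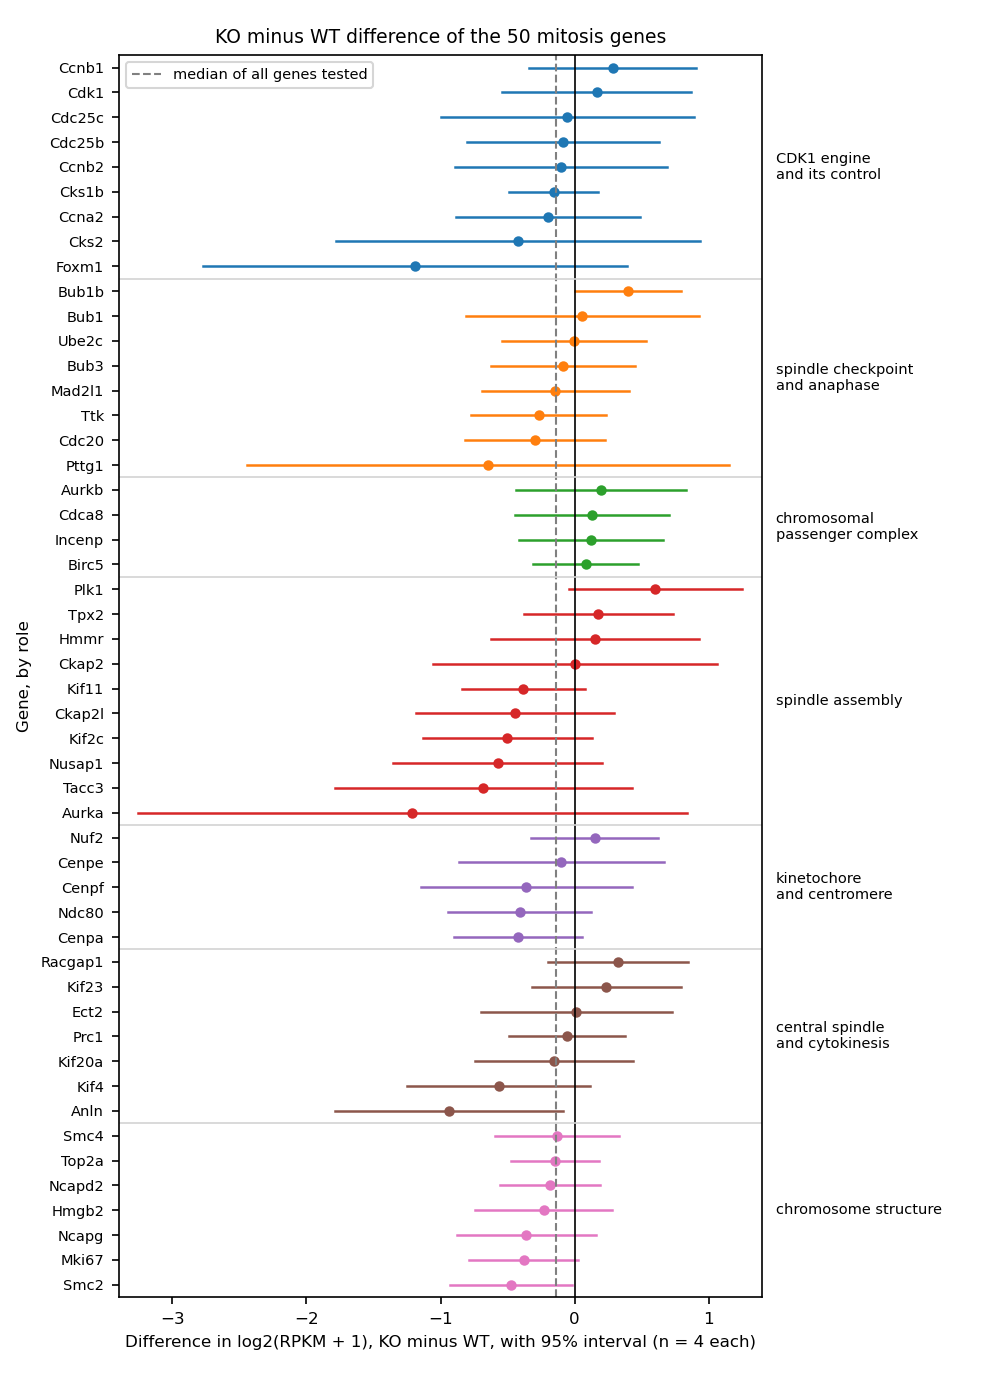
Difference in log2(RPKM + 1), KO minus WT, of the 50 mitosis genes, with 95% intervals from limma (n = 4 libraries each), by role; the dashed line is the median of all genes tested, -0.14. The intervals of Bub1b, Anln and Smc2 do not reach 0 before adjustment, and the widest intervals belong to Aurka, Foxm1 and Pttg1, which were listed at 0 in KO3.

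In the CDK1 engine, single libraries stood out more than the genotypes did. Of its 9 genes, 2 were higher and 7 lower by sign, with a median of -0.10. Without KO3 the count was 4 higher and 5 lower (median -0.016), and after centring on the median 5 higher and 4 lower (0.0032). Cdk1 was at 63.1, 69.2, 50.1 and 120 RPKM in KO1 to KO4, against 79.2, 38.2, 71.4 and 76.3 RPKM in WT1 to WT4 (log2 difference 0.17 ± 0.32, SE). The groups overlapped throughout, with the highest value in KO4 and the lowest in WT2. Ccnb1, which encodes cyclin B1, was at 77.4, 65.3, 169 and 77.1 RPKM in KO, against 75.8, 73.9, 68.8 and 77.5 RPKM in WT (0.28 ± 0.28). The WT values lay close together, and the KO mean was set by KO3, without which the difference was -0.016.

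Ccnb2, the sister cyclin, was at 66.6, 97.0, 68.9 and 92.9 RPKM in KO and at 126, 38.4, 93.6 and 120 RPKM in WT (-0.10 ± 0.35). Here WT2 was the low library and the KO values lay inside the WT range. Foxm1, the transcription factor that induces many of these genes, was at 8.58, 9.30, 0 and 5.99 RPKM in KO, against 13.7, 9.80, 11.3 and 8.60 RPKM in WT (-1.19 ± 0.71, limma adjusted p = 0.700). Without KO3, listed at 0, the difference was -0.40, and it was -0.24 in the lane 4 libraries. Cdc25b, a phosphatase that activates CDK1, averaged 19.1 ± 8.74 RPKM in KO and 19.3 ± 3.77 RPKM in WT, and its paralog Cdc25c averaged 9.23 ± 4.75 and 9.08 ± 2.72 RPKM.

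**Figure D2:**
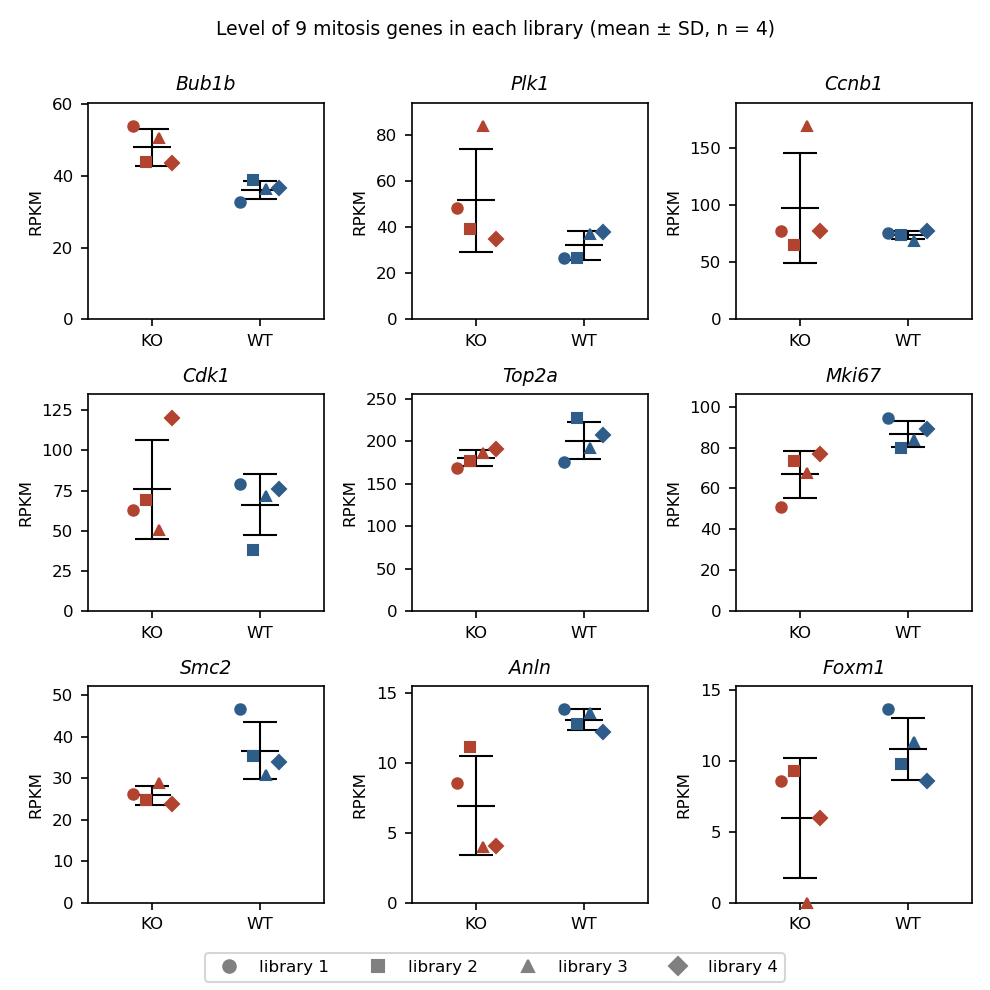
RPKM of 9 mitosis genes in each KO and WT library (symbols by library number, which does not pair the groups), with mean ± SD of 4 libraries as bars. Bub1b lies higher in all 4 KO libraries, Mki67, Smc2 and Anln lie lower in all 4, and single KO libraries raise the KO means of Ccnb1 and Cdk1. For Plk1, KO3 is the highest, and 3 of 4 KO libraries lie above all WT libraries.

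The spindle checkpoint and anaphase genes held the clearest higher value. Bub1b was at 54.0, 43.8, 50.7 and 43.7 RPKM in KO1 to KO4, against 32.6, 38.8, 36.4 and 36.7 RPKM in WT1 to WT4. Every KO library lay above every WT library, and the means were 48.0 ± 5.14 and 36.2 ± 2.57 RPKM. The log2 difference was 0.40 ± 0.18, with a limma adjusted p of 0.660 and a 2-sided exact permutation p of 0.0286, the smallest that 70 assignments can give. Because the groups did not overlap, that exact p follows from the separation and adds nothing to it.

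The paralog Bub1, a kinase of the same checkpoint, was at 7.27, 7.79, 11.9 and 8.86 RPKM in KO and at 14.6, 4.80, 7.44 and 9.36 RPKM in WT (0.06 ± 0.39). Its KO values lay inside the WT range. Ube2c, the ubiquitin-conjugating enzyme of the anaphase-promoting complex, was the most abundant gene of this role at 132 ± 37.0 RPKM in KO and 133 ± 34.2 RPKM in WT, with a log2 difference of 0.00 and an interval of -0.54 to 0.54. The remaining 5 genes of this role, Bub3, Mad2l1, Ttk, Cdc20 and Pttg1, were lower by sign and did not pass, with log2 differences from -0.65 (Pttg1, 0.17 without KO3) to -0.09 (Bub3). After centring on the median 4 of the 8 genes of this role were higher and 4 lower, with a median of -0.011.

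The chromosomal passenger complex, which corrects faulty attachments and guides cytokinesis, was the single role in which all genes, 4 of 4, were higher by sign. The differences were small, from 0.08 (Birc5) to 0.20 (Aurkb), with a median of 0.13. Incenp, its scaffold, was at 90.1, 80.6, 46.8 and 84.2 RPKM in KO, against 59.4, 75.7, 79.4 and 57.2 RPKM in WT (0.12 ± 0.24). The kinase gene Aurkb averaged 54.5 ± 10.8 RPKM in KO and 48.9 ± 16.3 RPKM in WT, and Birc5, which encodes survivin, 39.3 ± 3.82 and 36.9 ± 1.34 RPKM. For each of the 4 genes the groups overlapped. All 4 stayed higher by sign after quantile normalization (median 0.065) and after centring on the median (0.23). With library weights 3 of 4 were higher, since Birc5 turned to -0.051, and without WT2 2 of 4 were higher, with a median of 0.0060. Without KO1 the median was 0.057, and in the lane 4 libraries all 4 were higher, with a median of 0.31.

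Of 10 spindle assembly genes, 3 were higher and 7 lower by sign, with a median of -0.41. Without KO3 1 was higher and 9 lower, with a median of -0.21. Plk1, the polo kinase, was at 48.5, 39.2, 83.9 and 34.7 RPKM in KO1 to KO4, against 26.7, 26.8, 37.1 and 37.7 RPKM in WT1 to WT4. KO4 lay inside the WT range, and the other 3 KO libraries lay above it (0.60 ± 0.29, limma adjusted p = 0.665, and 0.34 without KO3). Kif11 was at 59.9, 70.1, 81.8 and 107 RPKM in KO, against 104, 117, 94.8 and 94.0 RPKM in WT (-0.38 ± 0.21, limma adjusted p = 0.684). Here again KO4 lay inside the WT range and the other 3 KO libraries lay below it.

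Aurka, the kinase of spindle poles, was at 24.9, 20.9, 0 and 12 RPKM in KO and at 17.8, 23.9, 22.1 and 18.6 RPKM in WT (-1.21 ± 0.91). Without KO3, listed at 0, the difference was -0.14, and in the lane 4 libraries, without KO3 and KO4, it was 0.15. Tpx2, the activator of aurora A, was at 26.2, 28.8, 53.1 and 30.8 RPKM in KO against 29.7, 27.7, 27.5 and 32.8 RPKM in WT (0.18 ± 0.25), with KO3 as the single library far from the rest. The 6 other genes of this role were Hmmr, Ckap2, Ckap2l, Kif2c, Nusap1 and Tacc3, with log2 differences from -0.68 (Tacc3) to 0.15 (Hmmr).

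Kinetochore and centromere genes were lower by sign in 4 of 5, with a median of -0.36, and did not pass. Without KO1, 3 of 5 were lower and the median was -0.090, and centring on the median also left 3 of 5 lower (-0.25). In the lane 4 libraries 5 of 5 were lower (-0.40), and with library weights 4 of 5 (-0.44). Cenpa, the histone H3 variant that marks the centromere, was at 35.7, 35.7, 30.1 and 25.1 RPKM in KO, against 49.1, 49.7, 36.8 and 35.4 RPKM in WT (-0.42 ± 0.21, limma adjusted p = 0.678). KO1 and KO2 lay just above the lowest WT library, so the groups overlapped narrowly. Nuf2 and Ndc80, partners in the complex that grips microtubules, differed in sign, with log2 differences of 0.15 ± 0.21 for Nuf2 and -0.41 ± 0.24 for Ndc80. Cenpf and Cenpe, large proteins of the outer kinetochore, had -0.36 ± 0.35 and -0.10 ± 0.34. Without KO1 they stood at -0.090 for Cenpf and 0.043 for Cenpe, and without WT3 Cenpe stood at 0.084.

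Of 7 cytokinesis genes, 3 were higher and 4 lower by sign, with a median of -0.06 (0.033 without KO1 and 0.046 after centring on the median). In the lane 4 libraries 2 were higher and 5 lower, with a median of -0.15. Among them Anln was the lowest in KO relative to WT. It encodes anillin, a scaffold of the contractile ring, and was at 8.58, 11.2, 4.0 and 4.08 RPKM in KO1 to KO4, against 13.9, 12.8, 13.6 and 12.2 RPKM in WT1 to WT4. All KO libraries lay below all WT libraries, and the lane 5 libraries KO3 and KO4 were lowest. The log2 difference was -0.94 ± 0.38, with an adjusted p of 0.637 in limma, and -0.39 in the lane 4 libraries.

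Kif4, a motor of the central spindle, was at 5.77, 9.54, 8.48 and 11.8 RPKM in KO, against 14.1, 11.4, 14.5 and 13.3 RPKM in WT (-0.57 ± 0.31). KO4 alone reached the WT range. Racgap1 and Kif23, which together form the centralspindlin complex, were higher by sign at 0.33 ± 0.23 and 0.24 ± 0.25. Prc1, the microtubule bundler of the midzone, averaged 56.7 ± 9.96 RPKM in KO and 58.8 ± 7.99 RPKM in WT.

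All 7 genes of chromosome structure were lower by sign, from -0.47 (Smc2) to -0.13 (Smc4), with a median of -0.23, and all 7 were lower as well after quantile normalization (-0.33) and after centring on the median (-0.13). With library weights 6 of 7 were lower, since Ncapd2 turned to 0.0016. Smc2 was at 26.1, 24.7, 28.9 and 23.8 RPKM in KO, against 46.5, 35.2, 30.9 and 33.9 RPKM in WT. The groups did not overlap, and the means were 25.9 ± 2.23 and 36.6 ± 6.86 RPKM (-0.47 ± 0.20, limma adjusted p = 0.647). Mki67 was at 50.8, 73.3, 67.4 and 76.7 RPKM in KO, against 94.6, 79.6, 83.9 and 88.9 RPKM in WT. These groups did not overlap either, although KO4 lay just under WT2 (-0.38 ± 0.18, limma adjusted p = 0.665).

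Smc4, the dimer partner of Smc2, averaged 134 ± 37.7 RPKM in KO and 143 ± 14.8 RPKM in WT. Top2a was at 169, 177, 186 and 190 RPKM in KO and at 176, 228, 192 and 207 RPKM in WT (-0.15 ± 0.15), with an interval of -0.47 to 0.18. Hmgb2 had -0.23 ± 0.23, with its lowest value of 203 RPKM in KO3, and -0.0024 without KO3. The condensin I subunits Ncapd2 and Ncapg had log2 differences of -0.18 ± 0.17 and -0.36 ± 0.23.

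Members of a family were also compared as a log2 ratio of RPKM + 1 within each library, which depends little on scaling between libraries. With 6 pairs tested by 2-sided exact permutation, the Benjamini-Hochberg adjusted p lay between 0.729 and 0.971, so no ratio was shown to differ. The log2 ratio of Smc2 to Smc4 averaged -2.29 ± 0.49 in KO and -1.95 ± 0.31 in WT, and that of Bub1 to Bub1b averaged -2.31 ± 0.31 in KO and -1.98 ± 0.69 in WT. Cks1b exceeded Cks2 in every library, by 2.0 to 18.2 times in RPKM, and the largest ratio was in KO3, where Cks2 stood at 12.8 RPKM. Aurka lay below Aurkb in every library, with a log2 ratio of -2.56 ± 1.92 in KO and -1.15 ± 0.69 in WT. In KO3 this ratio was -5.34 and rests on the added 1, since Aurka is listed at 0 there; the difference between the genotypes was -1.41 with KO3, -0.48 without it and -0.13 in lane 4.

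**Figure D3:**
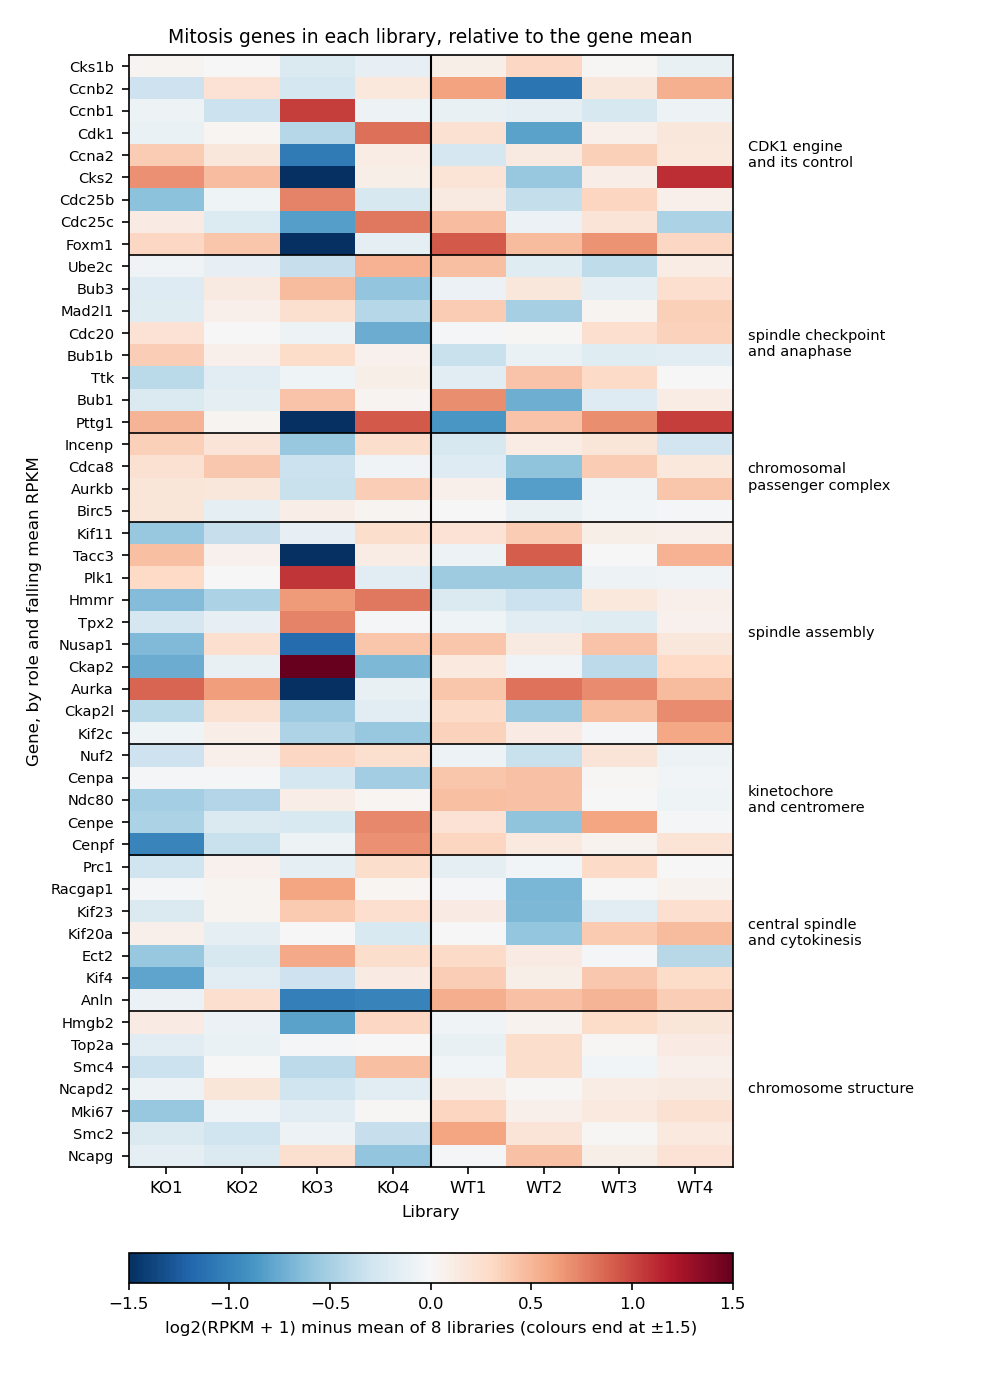
Level of each mitosis gene in each library as log2(RPKM + 1) minus the mean of that gene over 8 libraries, with genes by role and KO libraries left of WT libraries; colours end at ±1.5. KO3 holds dark cells in both directions (Ccnb1, Plk1 and Ckap2 high; Foxm1, Aurka, Cks2, Tacc3 and Pttg1 low), and WT2 is low for Ccnb2, Cdk1 and Aurkb.

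The spread was wider in KO than in WT by its median, and part of it came from KO3. The median SD over the 50 genes, on the log2(RPKM + 1) scale, was 0.38 in KO and 0.25 in WT, and it was 0.29 in KO without KO3. Over the 7378 tested genes at or above the lowest mean of the 50, it was 0.50 in KO and 0.34 in WT. The wider spread in KO was thus not particular to the mitosis genes. KO3 was the highest or lowest of the 8 libraries in 24 of the 50 genes (48.0%), beside 62.3% of all tested genes. It was high for 10 and low for 14, so it did not move the set in a single direction. WT2 was the highest or lowest in 19 genes (38.0%), KO1 in 18 (36.0%) and KO4 in 14 (28.0%), beside 31.2%, 21.8% and 33.7% of all tested genes. Across the 8 libraries the correlation of a gene with the mean of the other 49 had a median of 0.42 and ran from -0.82 (Aurka) to 0.95 (Hmmr). Without KO3 the median was 0.23. The points share library and scaling, and with 8 libraries these values are a description.

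Within lane 4, which holds KO1, KO2 and all WT libraries, 38 of 50 mitosis genes were lower in KO by sign, which is 76.0%, where 51.3% of all tested genes were lower; the median was -0.11, against -0.02 for all genes. With limma, 0 of 50 passed an adjusted p of 0.05 (smallest 0.302), where 0.0177% of all tested genes passed. At an unadjusted p under 0.05, 5 were lower (Cenpf, Kif4, Ndc80, Kif11 and Mki67) and 0 were higher, beside 6.04% and 4.95% of all tested genes. KO1 and KO2 lay below all WT libraries in 10 of 50 genes, beside 13.5% of all tested genes, and above them in 3 (Bub1b, Incenp and Plk1), beside 10.7%. Without WT2, KO3 and KO4, a choice made after seeing the data, 0 passed in limma beside 0.0266% of all tested genes, and at an unadjusted p under 0.05 the counts were 1 higher and 7 lower, beside 6.11% and 7.92%. With libraries weighted by their quality in limma, 0 passed beside 1.45%, and the counts were 1 higher and 8 lower, beside 8.13% and 9.55%.

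Cenpf had the most negative log2 difference of the 50 in lane 4, -0.84, at 6.75 and 11.2 RPKM in KO1 and KO2, against 18.2, 15.9, 14.9 and 16.7 RPKM in WT1 to WT4. In the lane 5 libraries it stood at 13.5 RPKM in KO3 and 23.6 RPKM in KO4. Hmmr, a spindle protein, likewise lay at 19.3 and 21.9 RPKM in KO1 and KO2, at 48.5 and 54.2 RPKM in KO3 and KO4, and at 24.5 to 34.6 RPKM in WT. For Hmmr, KO1 and KO2 lay below and KO3 and KO4 above all WT values, and for Cenpf, KO4 alone lay above them and the other 3 KO libraries lay below. Lane 5 held no WT library, so lane and the differences between KO libraries cannot be told apart.

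**Figure D4:**
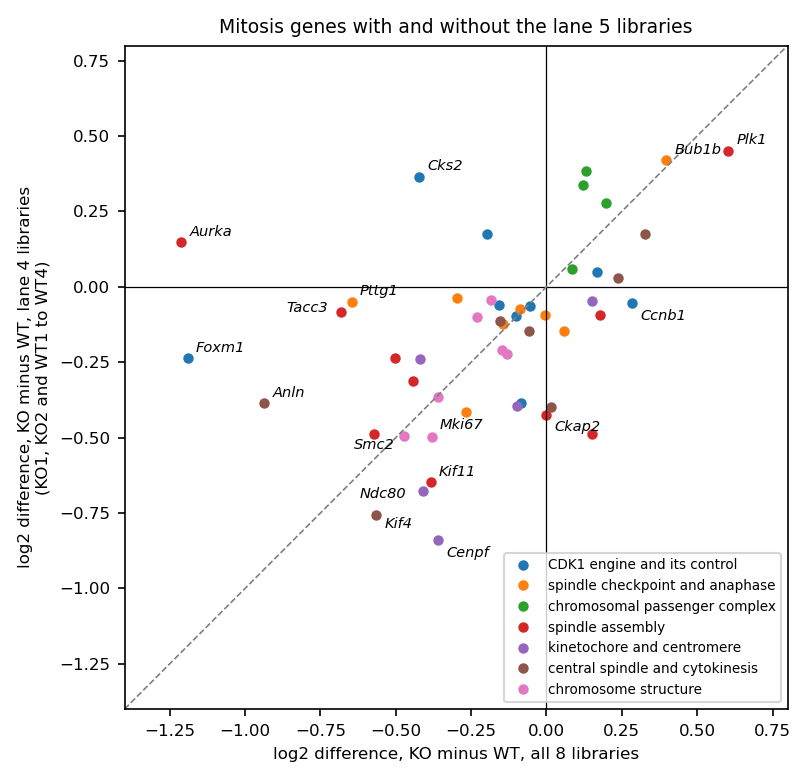
Log2 difference, KO minus WT, of each mitosis gene with all 8 libraries (horizontal) and in the lane 4 libraries alone (vertical), coloured by role; the dashed line marks equal values. Bub1b and Plk1 stay on the positive side and Kif4, Ndc80, Kif11, Cenpf, Mki67, Smc2 and Anln on the negative side in both, and Aurka, Cks2 and Ccnb1 are among the genes that change sign.

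The order of the genotypes in the level of the whole set depended on how libraries were scaled. Without any centring, the mean log2(RPKM + 1) of the 50 genes was 5.16, 5.28, 4.99 and 5.33 in KO1 to KO4, against 5.41, 5.22, 5.41 and 5.46 in WT1 to WT4. After subtraction of the mean of all tested genes it was 1.4, 1.41, 1.75 and 1.70 in KO and 1.55, 1.54, 1.53 and 1.57 in WT. On this scale the WT libraries were nearly identical, KO1 and KO2 lay below them, and KO3 and KO4 above them. With medians in place of means, the set stood at 1.75, 1.69, 1.93 and 1.70 in KO and 1.67, 1.47, 1.49 and 1.53 in WT, so that all KO libraries lay above all WT libraries. No direction is therefore given for the set.

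**Figure D5:**
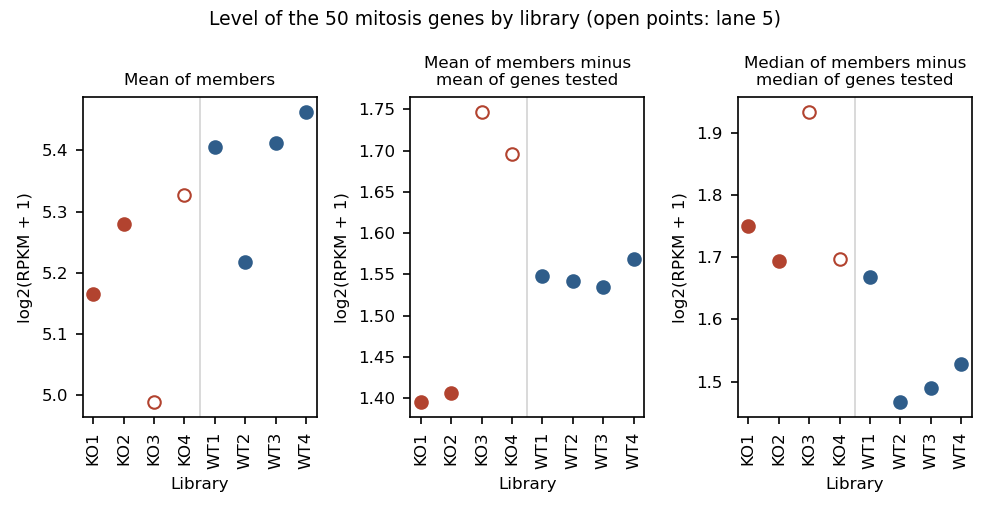
Level of the 50 mitosis genes in each library on the log2(RPKM + 1) scale, as the mean of the genes (left), minus the mean of all genes tested (middle) and with medians for both (right); red points are KO, blue points WT, and open points lane 5. KO1 and KO2 lie below the WT libraries in the middle panel and above them in the right panel; the vertical axes differ and do not start at 0.

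Other genes of the cell cycle were not called either. Of 92 further mitosis genes tested (kinetochore, cohesin, anaphase-promoting complex and others), 0 passed in limma after adjustment, 29 were higher and 63 lower by sign, which is 68.5% lower where 61.0% of all tested genes were lower, and the median was -0.23. At an unadjusted p under 0.05, 0 were higher and 7 were lower (Kif20b, Dsn1, Cenpq, Ska1, Ncaph, Rad21 and Ensa), beside 2.77% and 4.74% of all tested genes; these genes were named after their values were seen. Kif20b, a cytokinesis motor, was at 10.1, 12.3, 14.6 and 13.4 RPKM in KO, against 24.1, 22.3, 21.4 and 18.7 RPKM in WT (-0.74). Rad21, a cohesin subunit, was at 69.8, 90.7, 86.2 and 81.8 RPKM in KO, against 131, 104, 101 and 98.5 RPKM in WT (-0.40). In both genes all KO libraries lay below all WT libraries. This held for 3 of the 92 genes (Kif20b, Rad21 and Cenpq), beside 3.88% of all tested genes. Cenpq was listed at 0 in KO3 and KO4. The opposite separation was found in 0 of the 92, beside 2.05%.

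Of 41 DNA replication genes, 0 passed in limma, and 18 were higher and 23 lower by sign, with a median of -0.05. That is 56.1% lower, where 61.0% of all tested genes were lower. Their level minus that of all tested genes was 1.62 to 1.95 in KO and 1.56 to 1.75 in WT. At an unadjusted p under 0.05 in limma, 1 was higher and 0 were lower, beside 2.77% and 4.74% of all tested genes. The gene was Cdc6, a loader of the replicative helicase. It was at 21.9, 20.4, 21.6 and 26.0 RPKM in KO, against 14.6, 15.1, 15.6 and 17.5 RPKM in WT (0.49). Every KO value of Cdc6 lay above every WT value. Such a separation was found in 1 of the 41 genes, beside 2.05% of all tested genes.

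Markers of other cells also differed between the libraries. All 8 granulocyte-monocyte progenitor markers were higher by sign in KO. Of them, 7 had an unadjusted p under 0.05 in limma, beside 2.77% of all tested genes, and 0 passed after adjustment, beside 0.0%. In 5 of the 8 all KO libraries lay above all WT libraries, beside 2.05% of all tested genes. The level of these markers minus that of all tested genes was 2.70 to 4.34 in KO and 0.89 to 2.25 in WT. KO1, with the highest level of these markers (4.34), held the lowest of the 8 values in 13 of the 50 mitosis genes and the highest in 5. Over all tested genes KO1 was lowest in 1339 and highest in 1120. KO3, next at 3.54, was lowest in 14 mitosis genes and highest in 10. KO2, at 3.33, was lowest in 2 and highest in 2, and KO4, at 2.70, lowest in 6 and highest in 8. Among the KO libraries the number of lowest values thus did not follow the order of the marker level. All 8 genes of the LSK gate and its stem cell end were lower by sign in KO, where 61.0% of all tested genes were lower. Of them, 2 (Flt3 and Procr) had an unadjusted p under 0.05 in limma, beside 4.74% of all tested genes, and 0 passed after adjustment. In 1 of the 8 all KO libraries lay below all WT libraries, beside 3.88%. The level of these 8 genes was 0.64 to 1.17 in KO and 1.29 to 1.54 in WT. Of 10 megakaryocyte-erythroid markers 9 were tested, with 4 higher and 5 lower and a level of -1.03 to 1.14 in KO and -0.18 to 0.78 in WT. Of 13 markers of mature lineage cells 3 were tested, with a level of 0.74 to 2.20 in KO and -0.74 to 0.65 in WT. All 3 were higher by sign in KO, with a median log2 difference of 1.87. Of these, 1 had an unadjusted p under 0.05 in limma, beside 2.77% of all tested genes, and 0 passed after adjustment. In 1 of these 3 all KO libraries lay above all WT libraries, beside 2.05% of all tested genes. The part of these markers in the values of the mitosis genes was not tested.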

How the data were processed

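Poly(A) RNA of LSK cells was sequenced in 8 libraries, grouped by the genotype in their titles, with 100 ng of total RNA as input per the labels' protocols. The deposited values are RPKM made by the authors, listed by Entrez gene ID. No header or label names this unit: multiplied by the longest transcript length in kilobases, the values sum to 1.14 to 1.17 M (mega) in each library, which RPKM would give. TopHat, edgeR and build mm9 are named in the submitters' processing notes, with no role or version; the counting tool is not given in the sources used here. Of 24112 gene IDs, 24029 (99.7%) matched a RefSeq symbol (GRCm38.p6, names and promoters only).

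Depth was estimated from low values (up to 0.2 RPKM); 31.6% to 60.0% of 48 to 95 values per library were whole reads within 0.03 reads, so reads were not recovered, no count test was run and no counting interval is given. Genes that reached 1 RPKM in 4 or more libraries were tested with limma 3.58.1 (R 4.3.3) on log2(RPKM + 1), genotype only, eBayes with trend and robust variance, adjusted over 11276 genes; the script was checked on simulated data. This scale understates changes of low genes. Differences are KO minus WT ± SE, and levels are mean ± SD. Exact permutation tests were 2-sided. Ratios between family members were planned on RPKM and taken on RPKM + 1, since Aurka is listed at 0 in KO3. No 2 libraries of a group held the same values (at most 6.86% of tested genes shared one).

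The genes, lists and tests were chosen with earlier results of these data known. Values per library are given for the most abundant gene of each of 7 roles, the 6 of smallest p in each direction, 6 landmarks and 6 family pairs, for some as mean ± SD or difference. Alternatives covered filter, pseudocount, scaling, lane, replicate number as a block, library weights, variance model and each library left out; leaving out WT2, KO3 and KO4 together, and KO3 for the correlations, were chosen after seeing the data.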

Additional observations from a re-analysis of the deposited data

Results flagged for a closer look

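In groups of 4 libraries, a value was picked out where its gap to the nearest other value was a larger part of the whole range of the group than Dixon's 95% critical value allows. Over 100 such groups (50 genes in 2 genotypes) this picked out 6 values, where chance gives about 1 in 20 groups. In KO, 4 of them were the highest value in KO3: Ccnb1 at 169 RPKM, Racgap1 at 84.0 RPKM, Tpx2 at 53.1 RPKM and Ckap2 at 48.3 RPKM. Ccnb1 encodes cyclin B1, and Ckap2 a microtubule-associated protein of the spindle. In KO4, Cenpe, a kinetochore motor, was high at 34.3 RPKM. In WT, Racgap1 was low in WT2 at 33.9 RPKM. KO3 and WT2 stood apart over all genes as well, and KO3 listed 24.1% of all tested genes at 0, beside 11.3% in KO4 and 8.22% in WT2; the part of this in the 6 values was not tested.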

How the results depend on the processing

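The count of mitosis genes past the threshold was 0 in all 20 alternatives (smallest adjusted p in limma 0.0889, with library weights), and their median log2 difference ran from -0.20 to -0.04. Quantile normalization moved the median of all tested genes to 0.00, with the mitosis genes at -0.19. Over all genes the count past the threshold was 2 in lane 4 alone, 3 without WT2, KO3 and KO4, 164 with library weights, 0 to 2 with 1 library left out (2 without KO3), and otherwise 0. Centring on the median gave 23 mitosis genes higher and 27 lower, in place of 15 and 35; leaving out a library gave 11 to 20 higher and 30 to 39 lower. The replicate number does not pair the groups (same-numbered libraries had correlations of -0.080 to -0.038 between deviations from their group means), and as a block it left the median at -0.15 and 0 calls, with a smallest adjusted p of 0.781 among the mitosis genes.

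Of the 50 genes, 24 kept their sign in all 20 alternatives and 26 turned in at least 1, with no call; the cause was not tested. Of these 26, 15 are among the 29 genes chosen by the rule for giving values, and their turned values follow. Centring on the median gave Ube2c 0.10, Prc1 0.046, Cdc25b 0.019, Ccnb2 0.0032 and Cdc25c 0.051, and quantile normalization Cdc25c 0.21. Lane 4 alone, and lane as a covariate, which gives the same differences, gave Nuf2 -0.046, Ccnb1 -0.054, Tpx2 -0.094, Aurka 0.15, Cks2 0.36 and Bub1 -0.15. Library weights gave Ccnb1 -0.093, Tpx2 -0.047, Cdk1 -0.033, Cks2 0.061 and Bub1 -0.20. Without WT2, KO3 and KO4 the values were Cks1b 0.018, Nuf2 -0.13, Ccnb1 -0.054, Kif23 -0.16, Tpx2 -0.12, Cdk1 -0.19, Aurka 0.22, Cks2 0.11 and Bub1 -0.38. With single libraries left out the ranges that crossed 0 were Aurkb -0.047 to 0.37, Bub1 -0.18 to 0.30, Ccnb1 -0.016 to 0.44, Ccnb2 -0.48 to 0.081, Cdc25b -0.35 to 0.11, Cdc25c -0.33 to 0.21, Cdk1 -0.080 to 0.33, Cks2 -0.72 to 0.20, Prc1 -0.16 to 0.033, Tpx2 -0.041 to 0.29 and Ube2c -0.18 to 0.15. The other 11 were Ccna2, Bub3, Pttg1, Birc5, Cdca8, Hmmr, Ckap2, Tacc3, Cenpe, Ect2 and Ncapd2, among which Hmmr turned to -0.49 in lane 4 alone. The values listed at 0 in KO3 limit Foxm1, Aurka and Pttg1 most.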
